A study of Caenorhabditis elegans with 10 samples.

Results

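Glycolysis is the chain of cytosolic reactions that splits glucose into pyruvate and yields ATP and NADH. The 10 genes described here encode enzymes of its steps between glucose 6-phosphate and pyruvate in Caenorhabditis elegans, together with lactate dehydrogenase, which exchanges pyruvate and lactate. They are gpi-1, aldo-1, aldo-2, tpi-1, gpd-2, gpd-3, pgk-1, enol-1, pyk-1 and ldh-1, matched by WormBase gene name in a table of 46756 genes. Most of these reactions run in either direction, so most of the same enzymes also serve gluconeogenesis, the synthesis of glucose from smaller molecules. In worms, gluconeogenesis can draw on stored fat through the glyoxylate cycle, and larvae that hatch without food depend on stored reserves.

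To find genes that respond to loss of pbrm-1 in the mesoderm, polyA RNA of whole larvae at the early L1 stage was sequenced in 10 libraries, with 5 of the control strain, pbrm-1(control), and 5 of the conditional knockout strain, pbrm-1(TS-KO). pbrm-1 encodes a subunit of PBAF, a SWI/SNF chromatin remodeling complex. Both strains carried pbrm-1(rd31[pbrm-1::GFP(flox)]), a GFP-tagged allele flanked by loxP sites, and an unc-119 mutation rescued with Caenorhabditis briggsae unc-119. pbrm-1(TS-KO) also carried rdIs74, a transgene in which the hnd-1 promoter drives Cre and a ZIF-1 fusion with a GFP nanobody, and pbrm-1(control) carried rdIs79, in which that promoter drives unfused ZIF-1. The hnd-1 promoter is active in mesodermal cells, among them body wall muscle and the somatic gonad precursors, and some pbrm-1(TS-KO) larvae lose pbrm-1 in every cell through recombination in the mother. The parents of both strains were grown at 20 °C, and their embryos hatched overnight in M9 medium without food. The replicates, numbered 1, 4, 5, 6 and 7 in both strains, were separate cultures collected on different days, with the strains side by side on each day. Libraries of the same number were taken as same-day pairs, although the sample titles do not name the day. Because whole animals were sequenced, fewer cells of a type and less RNA per cell cannot be told apart.

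The libraries held between 35922561 and 46553938 counts, and 16817 genes passed the filter on low counts and were tested, all 10 glycolysis genes among them. In a principal component analysis, pbrm-1(control) replicate 5 stood apart from the other pbrm-1(control) libraries, at 56.8 on the first component against -2.65 to 20.4. The gene-level count of pbrm-1 was a weak check of the labels, since the deletion removes only its last exons, mainly in mesodermal cells. The authors' exon-level analysis found most of those exons lower in pbrm-1(TS-KO). For the whole gene, pbrm-1(TS-KO) had 247 ± 11.5 and pbrm-1(control) 263 ± 23.9 CPM (SD, n = 5), with overlapping libraries and an adjusted p of 0.433. CPM relate the count of a gene to the library's size, adjusted by edgeR's TMM factors. Genes were called at an adjusted p of at most 0.05 in edgeR's quasi-likelihood test, with adjustment over all genes tested.

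Of the 10 glycolysis genes, gpd-3 was the single gene called in the test without a term for the day, and it rose in pbrm-1(TS-KO). aldo-2 was called as well when the replicate number, taken to mark the day, was a block in edgeR (adjusted p = 0.0176). gpi-1 and gpd-2 had positive fold changes in all 5 same-day pairs of libraries and were called in neither fit, and no gene of the list was called lower. Over the 16817 genes tested, 2177 had a higher level in pbrm-1(TS-KO) in all 5 pairs. In all, 6 of the 10 had a higher and 4 a lower level in pbrm-1(TS-KO), and their median log2 fold change was 0.02, against 0.00045 over all genes tested. The count of 1 in 10 called stands beside 7.72% of all genes tested that were called in either direction, 3.44% that were called higher and 4.28% that were called lower. Among genes with a mean of at least 100 CPM, which include 9 of the 10, 13.4% were called in either direction and 6.57% were called higher. At an unadjusted p under 0.05 stood 4 of the 10, gpi-1, aldo-2, gpd-2 and gpd-3, beside 24.1% of all genes tested. A share of 1 in 10 was therefore near the background. Other tools called 2 of the 10 each, DESeq2 beside 11.7% of all its tested genes and limma-voom beside 17.2%.

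The levels differed widely between the enzymes. In pbrm-1(control), CPM per kb of exon were highest for aldo-2, at 1733 ± 154 (SD, n = 5), followed by gpd-3 at 909 ± 60.1 and gpd-2 at 378 ± 21.6. The ranges of these genes over libraries did not overlap each other, although the split of uniquely mapped reads between gpd-2 and gpd-3 is uncertain. On the same scale enol-1 at 288 ± 6.79 and aldo-1 at 277 ± 12.8 had overlapping ranges, and both stood above tpi-1 at 153 ± 15.5. tpi-1 in turn overlapped ipgm-1, the phosphoglycerate mutase, at 137 ± 4.73. pyk-1 at 119 ± 5.37 stood apart from its neighbours. gpi-1 at 102 ± 1.36 and pgk-1 at 100.4 ± 4.76 overlapped, and ldh-1 was the lowest of the 10 at 65.7 ± 15.6. The order of the first 9 of the 19 glycolysis genes by mean level per kb was identical in pbrm-1(TS-KO), where aldo-2 stood at 2019 ± 122 and gpd-3 at 1154 ± 114.

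**Figure D1:**
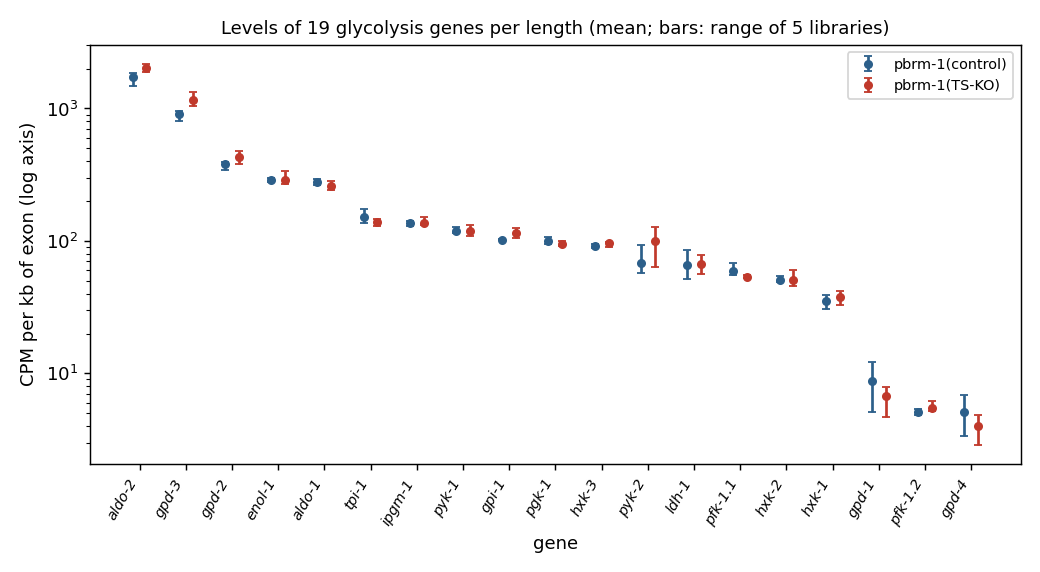
Mean CPM per kb of exon, on a log axis, of the 10 glycolysis genes and the other 9 genes of the pathway in pbrm-1(control) (blue) and pbrm-1(TS-KO) (red), with bars for the range of 5 libraries. aldo-2 and gpd-3 stand above the other genes in both strains, and gpd-1, pfk-1.2 and gpd-4 stand below them.

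gpd-2 and gpd-3 encode glyceraldehyde-3-phosphate dehydrogenase, which makes 1,3-bisphosphoglycerate and NADH. They lie 101 bases apart on the minus strand of the X chromosome, gpd-2 at 3113443 to 3114689 and gpd-3 at 3112091 to 3113341 of WBcel235. gpd-3 was measured at 1255, 1203, 1296, 1365 and 1544 CPM in pbrm-1(TS-KO) replicates 1, 4, 5, 6 and 7. In pbrm-1(control) it was at 937, 1065, 1107, 1104 and 1035 CPM in the same order. Every pbrm-1(TS-KO) library was above every pbrm-1(control) library, and pbrm-1(TS-KO) replicate 7 was the highest of the 10. The means were 1333 ± 132 and 1049 ± 69.5 CPM (SD, n = 5), a rise of 1.27-fold. The log2 fold change was 0.34 with a standard error of 0.0712, a 95% interval of 0.19 to 0.50 and an adjusted p of 0.0144. Leaving out the pair of replicate 6 ended the call, at a log2 fold change of 0.36 and an adjusted p of 0.0659. Without pbrm-1(control) replicate 5, which stood apart, the value was 0.37 with an adjusted p of 0.0233.

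**Figure D2:**
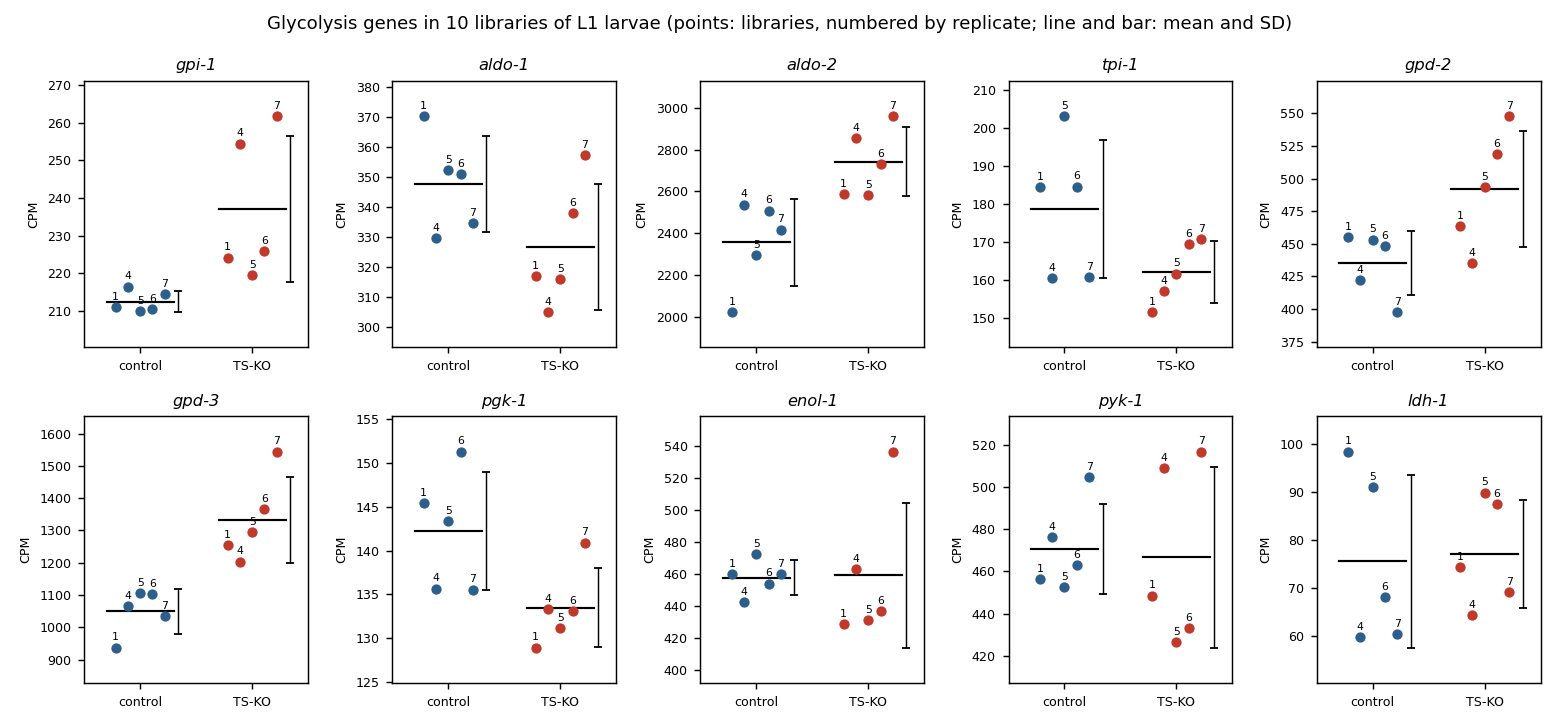
CPM of each of the 10 glycolysis genes by library, with points numbered by replicate, the mean as a line and the SD as a bar (n = 5 per strain); the axes do not start at 0. The libraries of the strains do not overlap for gpi-1, aldo-2 and gpd-3, and they overlap for the other 7 genes.

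gpd-2 stood at 463, 435, 493, 519 and 548 CPM in pbrm-1(TS-KO) replicates 1, 4, 5, 6 and 7. It stood at 455, 422, 453, 448 and 398 CPM in pbrm-1(control). The strains overlapped, since pbrm-1(TS-KO) replicate 4 lay within the range of pbrm-1(control), although pbrm-1(TS-KO) was the higher in 5 of 5 pairs. The log2 fold change of 0.18 (SE 0.0657, 95% interval 0.03 to 0.32) had an adjusted p of 0.129, and without the replicate 7 pair it was 0.11. The coding regions of gpd-2 and gpd-3 are nearly identical and only uniquely mapped reads were counted, so the split of reads between them is uncertain. With their counts added as 1 gene, the log2 fold change was 0.30 (SE 0.0656) with an adjusted p of 0.0197. mai-1, which encodes a mitochondrial ATPase inhibitor, lies upstream in the same operon and shares 22 exonic bases with gpd-2. It was chosen after its values were seen, and stood at 16.6 ± 3.79 CPM in pbrm-1(TS-KO) and 14.1 ± 1.44 CPM in pbrm-1(control), with an adjusted p of 0.378.

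aldo-1 and aldo-2 encode fructose-bisphosphate aldolase, which splits fructose 1,6-bisphosphate into triose phosphates and also joins them in gluconeogenesis. Both lie on chromosome III, aldo-2 at 5874673 to 5876625 and aldo-1 at 13563346 to 13564937. aldo-2 was at 2585, 2856, 2584, 2731 and 2961 CPM in pbrm-1(TS-KO) replicates 1, 4, 5, 6 and 7, and at 2021, 2537, 2293, 2508 and 2417 CPM in pbrm-1(control). The lowest pbrm-1(TS-KO) library was above the highest pbrm-1(control) library, and pbrm-1(control) replicate 1 was the lowest of the 10. The means of 2743 ± 166 and 2355 ± 210 CPM gave a log2 fold change of 0.22 (SE 0.0670, 95% interval 0.07 to 0.37) with an adjusted p of 0.0697, which did not pass. With the replicate number as a block, edgeR gave 0.22 with an adjusted p of 0.0176, so that 2 of the 10 genes were called, gpd-3 and aldo-2, beside 10.9% of all genes tested in that fit. DESeq2 with the same block also called these 2, beside 11.9%. aldo-2 shares 34 exonic bases with F01F1.3 on the opposite strand. aldo-1 had the opposite sign, with pbrm-1(TS-KO) libraries between 305 and 357 CPM, pbrm-1(control) libraries between 330 and 370 CPM, overlapping libraries and a log2 fold change of -0.09 (SE 0.0522, adjusted p = 0.326).

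gpi-1, on chromosome I at 13576148 to 13581611, encodes glucose-6-phosphate isomerase, which converts glucose 6-phosphate and fructose 6-phosphate into each other. It was at 224, 254, 219.6, 226 and 262 CPM in pbrm-1(TS-KO) replicates 1, 4, 5, 6 and 7, and at 211, 216, 210.0, 210.5 and 214 CPM in pbrm-1(control). The pbrm-1(control) libraries lay within a narrow range, and each pbrm-1(TS-KO) library was above all of them, with replicates 4 and 7 the highest. The log2 fold change was 0.16 (SE 0.0539, 95% interval 0.04 to 0.28) with an adjusted p of 0.0995. gpi-1, aldo-2 and gpd-3 were the 3 of 10 genes whose strains did not overlap. Over all genes tested 9.26% did not overlap, 4.35% with pbrm-1(TS-KO) the higher, and among those with a mean of at least 100 CPM 15.7% did not.

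The other 5 genes had overlapping libraries and were not called. tpi-1, on chromosome II at 12036835 to 12039139, encodes triosephosphate isomerase and was at 162 ± 8.11 CPM in pbrm-1(TS-KO) and 179 ± 18.2 CPM in pbrm-1(control). Its log2 fold change was -0.14 (SE 0.0686, adjusted p = 0.241), with pbrm-1(control) replicate 5 the highest library. pgk-1, on chromosome I at 3867541 to 3869109, encodes phosphoglycerate kinase, which makes ATP, and was at 133 ± 4.53 and 142 ± 6.74 CPM. Its log2 fold change was -0.09 (SE 0.0440, adjusted p = 0.231). Both genes were lower in pbrm-1(TS-KO) in 4 of 5 pairs, the exception being replicate 7.

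enol-1, on chromosome II at 8930997 to 8933799, encodes enolase, which forms phosphoenolpyruvate, and was at 459 ± 45.3 and 458 ± 10.8 CPM. The 95% interval of its log2 fold change ran from -0.13 to 0.14, with pbrm-1(TS-KO) replicate 7 at 537 CPM and the other 9 libraries between 429 and 473 CPM. pyk-1, on chromosome I at 9168432 to 9177488, encodes pyruvate kinase, which forms pyruvate and ATP, and was at 467 ± 42.9 and 471 ± 21.2 CPM with an interval of -0.15 to 0.13. ldh-1, on chromosome II at 11724204 to 11726533, was at 74.4, 64.3, 89.9, 87.5 and 69.2 CPM in pbrm-1(TS-KO) and at 98.4, 59.8, 91.0, 68.2 and 60.5 CPM in pbrm-1(control). Its spread within strains was the widest of the 10 on the log scale, and its 95% interval of -0.31 to 0.36 was the widest of the 10.

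**Figure D3:**
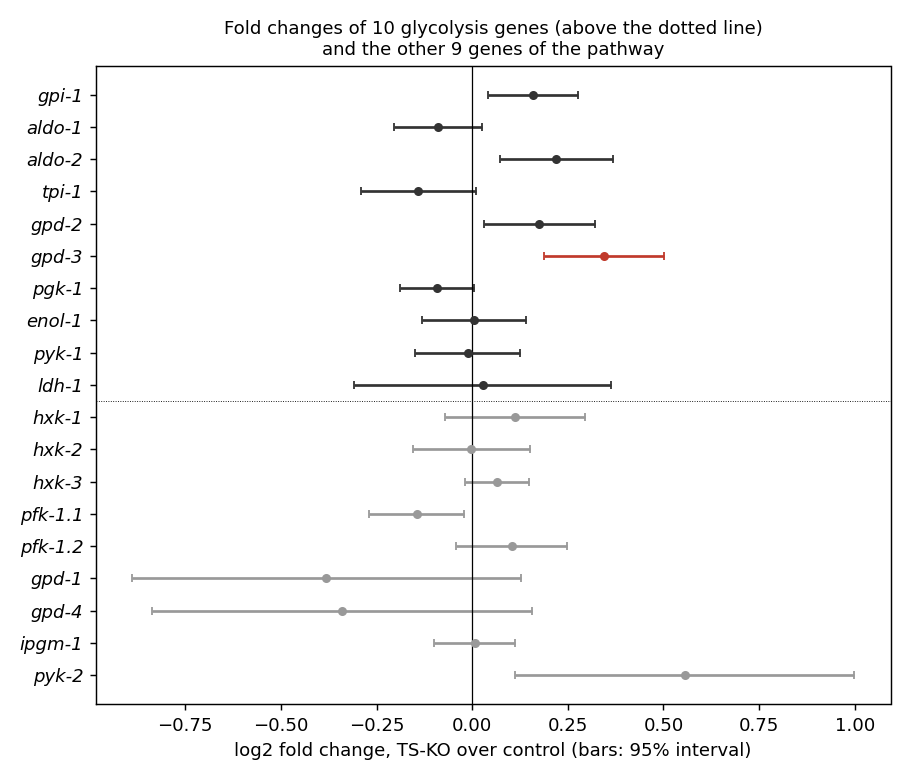
Log2 fold change of each glycolysis gene in pbrm-1(TS-KO) over pbrm-1(control) with its 95% interval, the 10 genes above the dotted line and the other 9 genes of the pathway below it; gpd-3, the single gene of the 19 called without the replicate block, is red. Before adjustment the intervals of gpi-1, aldo-2, gpd-2, gpd-3 and pyk-2 lie above 0 and that of pfk-1.1 lies below 0; those of gpd-1, gpd-4 and pyk-2 are the widest.

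Summed over the 10 genes, the level was 6431 ± 407 CPM in pbrm-1(TS-KO), from 6078 to 7106, and 5725 ± 231 CPM in pbrm-1(control), from 5339 to 5943, without overlap. The sum over the 8 genes other than aldo-2 and gpd-3, a division made after their values were seen, was 2355 ± 144 and 2320 ± 62.6 CPM, with overlapping libraries. aldo-2 and gpd-3 together accounted for 4076 ± 264 CPM in pbrm-1(TS-KO) and 3405 ± 266 CPM in pbrm-1(control).

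The share of counts that each paralog took within a library was compared by a two-sided exact permutation test over the 252 divisions of the 10 libraries into 5 and 5, with p-values adjusted over 4 shares. gpd-3 took 73.0, 73.4, 72.4, 72.5 and 73.8% of the counts of gpd-2 and gpd-3 in pbrm-1(TS-KO) replicates 1, 4, 5, 6 and 7. In pbrm-1(control) it took 67.3, 71.6, 70.9, 71.1 and 72.2%. The strains did not overlap, and pbrm-1(control) replicate 1 stood below the rest. The means of 73.0 ± 0.608% and 70.6 ± 1.93% differed by 2.39 percentage points (exact permutation p = 0.00794, adjusted 0.0159), and without pbrm-1(control) replicate 1 the difference was 1.56 points. This share is of uniquely mapped reads, whose split between these nearly identical genes is uncertain.

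aldo-1 took 10.9, 9.65, 10.9, 11 and 10.8% of the aldolase counts in pbrm-1(TS-KO), and 15.5, 11.5, 13.3, 12.3 and 12.2% in pbrm-1(control). Every pbrm-1(TS-KO) library was below every pbrm-1(control) library, and pbrm-1(control) replicate 1 was the highest. The means of 10.7 ± 0.566% and 12.9 ± 1.56% gave a difference of -2.30 percentage points (exact permutation p = 0.00794, adjusted 0.0159). The value 0.00794 is the smallest p that the test can give. An exact sign-flip permutation test of the 5 same-day pairs, which cannot go below 0.0625, gave an adjusted p of 0.0833 for both shares. It could not have passed the threshold with 5 pairs, and all 5 pairs had the same direction for each of these shares.

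The other shares did not pass. pyk-1 took 73.1 ± 7.42% of the pyruvate kinase counts in pbrm-1(TS-KO) and 80.2 ± 3.55% in pbrm-1(control), a difference of -7.09 percentage points (exact permutation p = 0.0873, adjusted 0.0873). Without pbrm-1(TS-KO) replicate 7 it was -9.46 points with an adjusted p of 0.0423, the largest difference among the fits that left out a library or a pair. gpd-2 and gpd-3 together took 99.3 ± 0.162% and 99.0 ± 0.298% of the counts of the 4 gpd genes (exact permutation p = 0.0556, adjusted 0.0741). This small difference passed without pbrm-1(control) replicate 7, at 0.46 points and an adjusted p of 0.0106, also the largest difference among such fits.

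**Figure D4:**
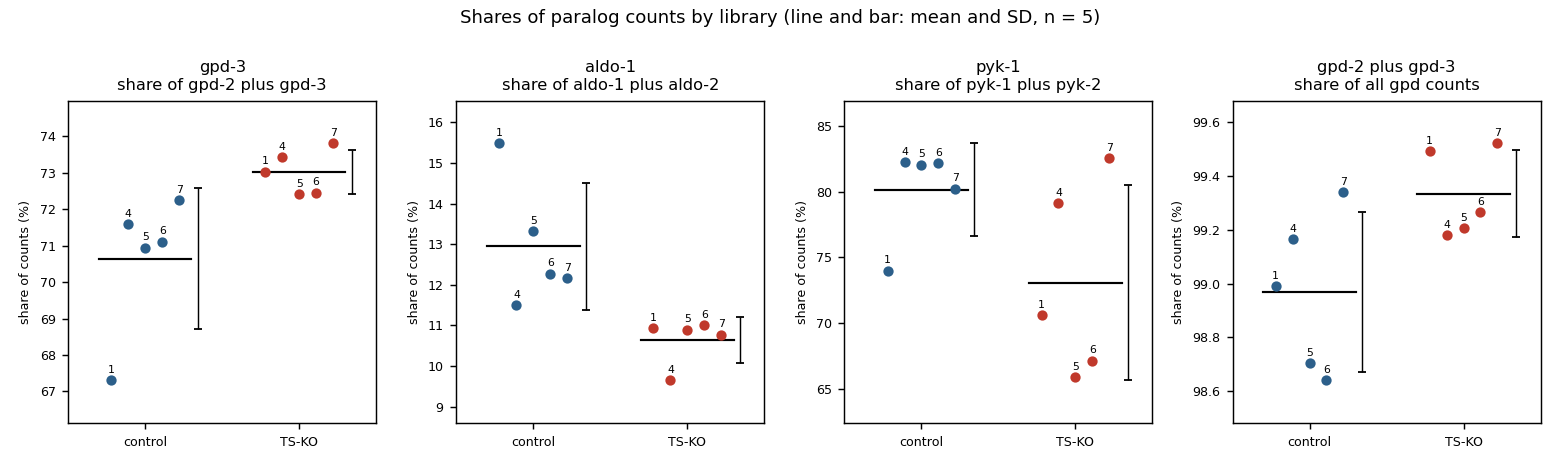
Share of paralog counts (%) in each library, with points numbered by replicate, the mean as a line and the SD as a bar (n = 5 per strain); the axes do not start at 0. The strains do not overlap for the gpd-3 and aldo-1 shares, and they overlap for the pyk-1 share and for gpd-2 plus gpd-3 among all gpd counts.

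Read by same-day pairs, the 10 genes did not move alike on each day. In the pair of replicate 7 pbrm-1(TS-KO) had the higher level of all 10 genes, and their median log2 ratio was 0.21. In the pair of replicate 4, 7 of 10 were higher with a median of 0.08, and in that of replicate 6, 5 of 10 with a median of 0.02. In the pairs of replicates 1 and 5, 4 of 10 were higher and the medians were -0.06 and -0.05. Over all genes tested, between 47.3% and 51.0% had a higher level in pbrm-1(TS-KO) in each pair.

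gpd-3 had pair ratios of 0.42, 0.18, 0.23, 0.31 and 0.58 on the log2 scale for replicates 1, 4, 5, 6 and 7. The ratios of aldo-2 were 0.36, 0.17, 0.17, 0.12 and 0.29. Both genes thus had their largest ratios in replicates 1 and 7. gpd-2 had ratios of 0.03, 0.04, 0.12, 0.21 and 0.46, the largest in replicate 7. ldh-1 had ratios from -0.40 in replicate 1 to 0.36 in replicate 6. pbrm-1(TS-KO) replicate 7 was the highest of the 10 libraries for 6 of the 10 genes, gpi-1, aldo-2, gpd-2, gpd-3, enol-1 and pyk-1. Without the pair of replicate 7, the median log2 fold change of the 10 genes was -0.01, and gpd-3 was called at 0.29 with an adjusted p of 0.0411.

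**Figure D5:**
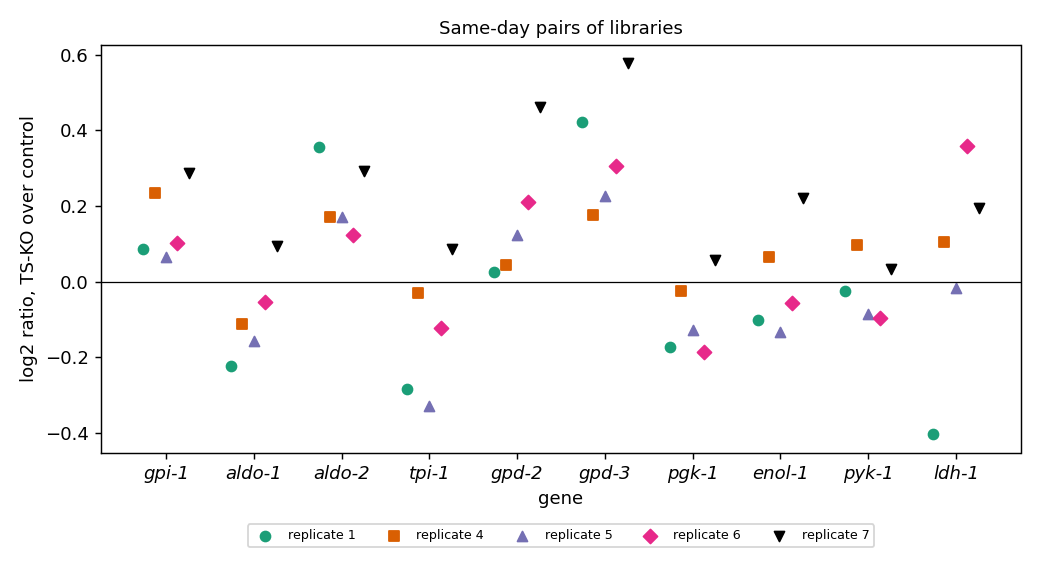
Log2 ratio of pbrm-1(TS-KO) over pbrm-1(control) in each same-day pair, by gene, with 1 marker shape per replicate number. All 5 markers lie above 0 for gpi-1, aldo-2, gpd-2 and gpd-3, and all 10 triangles pointing down (replicate 7) lie above 0.

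The genes varied together to unequal degrees over the 10 libraries, which share strain, day and depth. Pearson's r of log2 CPM over the 45 pairs of genes had a median of 0.21 and was positive for 28. After the mean of each strain was removed, the median was 0.39 and 32 were positive. With strain means removed, gpi-1 and pyk-1 had an r of 0.92 and aldo-1 and gpd-2 of 0.90. aldo-2 and gpd-3 had an r of 0.61 on that scale and gpd-2 and gpd-3 of 0.64. ldh-1 went the other way from several genes, with -0.81 against aldo-2 and -0.73 against pyk-1. These are descriptions over 10 libraries.

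The other 9 genes of the pathway cover hexokinase (hxk-1, hxk-2 and hxk-3), phosphofructokinase (pfk-1.1 and pfk-1.2), the further gpd genes gpd-1 and gpd-4, phosphoglycerate mutase (ipgm-1) and a second pyruvate kinase, pyk-2. All 9 were tested, 0 were called and 2 had an unadjusted edgeR p under 0.05, with a median log2 fold change of 0.0065. Over all genes tested, 7.72% were called and 24.1% had an unadjusted p under 0.05. DESeq2 called pyk-2 without the replicate block (adjusted p = 0.0403) and not with it (0.177), and limma-voom called pyk-2 and hxk-1. Of all its tested genes, DESeq2 called 11.7% without the block and 11.9% with it, and limma-voom called 17.2%. Hexokinase and phosphofructokinase catalyze steps that glycolysis does not share with gluconeogenesis. hxk-2 was at 101 ± 11.3 and 101 ± 3.40 CPM, and the 95% interval of its log2 fold change ran from -0.15 to 0.15. The intervals were -0.07 to 0.30 for hxk-1 and -0.02 to 0.15 for hxk-3.

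pfk-1.1, on chromosome X at 2940872 to 2945485, was at 190 ± 3.61 CPM in pbrm-1(TS-KO) and 210 ± 18.4 CPM in pbrm-1(control). It was lower in 5 of 5 pairs, as were 2329 of the 16817 genes tested, with a log2 fold change of -0.15 and an adjusted p of 0.142. The strains barely failed to overlap, since pbrm-1(TS-KO) replicate 7 and pbrm-1(control) replicate 4 were both at 195.5 CPM after rounding. Without pbrm-1(control) replicate 1, the highest library at 242 CPM, the value was -0.09. pyk-2, on chromosome IV at 10909913 to 10913078, was at 187, 134, 221, 212 and 109 CPM in pbrm-1(TS-KO) replicates 1, 4, 5, 6 and 7. In pbrm-1(control) it was at 160.5, 103, 99.0, 100.4 and 124 CPM. pbrm-1(TS-KO) replicate 7 was the lowest of its strain for pyk-2 and lay within the range of pbrm-1(control), whereas for pyk-1 it was the highest of the 10 libraries.

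The log2 fold change of pyk-2 was 0.56 (SE 0.202, 95% interval 0.11 to 1.00) with an adjusted p of 0.120 (0.114 with the replicate block). Without pbrm-1(TS-KO) replicate 7 it was 0.68 with an adjusted p of 0.0458, the 1 call in 15 leave-out fits. Those fits ran from 0.40 to 0.71, with adjusted p from 0.0458 to 0.395. pyk-2 shares 204 exonic bases with ZK593.11, an antisense gene, and whether strand was used in counting is not stated, so their reads may be mixed. gpd-1 at 7.56 ± 1.55 and 9.86 ± 3.35 CPM, and gpd-4 at 4.54 ± 1.07 and 5.75 ± 1.81 CPM, gave log2 fold changes of -0.38 (adjusted p = 0.347) and -0.34 (adjusted p = 0.393). They are a second near-identical pair on chromosome II, and with their counts added the value was -0.37 with an adjusted p of 0.347.

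A list of 17 bordering genes covered gluconeogenesis, the pyruvate dehydrogenase complex, the pentose phosphate pathway and glycogen turnover, and also held pfkb-1.1 and pfkb-1.2. Among the 17, 1 was called higher and 0 lower, and the median log2 fold change was 0.10. Over all genes tested, 7.72% were called, 3.44% higher and 4.28% lower. Of the 17, the gene called was pck-2, phosphoenolpyruvate carboxykinase, which makes phosphoenolpyruvate from oxaloacetate. It was at 1365, 1549, 1518, 1602 and 1843 CPM in pbrm-1(TS-KO) replicates 1, 4, 5, 6 and 7, and at 1152, 1353, 1346, 1319 and 1296 CPM in pbrm-1(control). The strains did not overlap, as for 9.26% of all genes tested and 15.7% of those with a mean of at least 100 CPM. pbrm-1(TS-KO) replicate 7 was again the highest library. The log2 fold change of 0.28 (SE 0.0755) had an adjusted p of 0.0426, close to the threshold. It was called in 8 of 9 other settings, among them the replicate block in edgeR (adjusted p = 0.0155), and in 2 of 15 fits that left out 1 library or 1 pair, with adjusted p from 0.0234 to 0.141. fbp-1, fructose-1,6-bisphosphatase, was at 72.7 ± 28.8 and 63.8 ± 24.0 CPM with an adjusted p of 0.744.

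Of 8 genes of the hypoxia pathway, which controls glycolysis genes in many animals, edgeR called 0, with 1 at an unadjusted p under 0.05 and a median log2 fold change of 0.04. Over all genes tested, 7.72% were called and 24.1% had an unadjusted p under 0.05. hif-1, the transcription factor of the hypoxia pathway, was at 687 ± 88.4 CPM in pbrm-1(TS-KO) and 633 ± 56.8 CPM in pbrm-1(control), with an adjusted p of 0.470. limma-voom called it, at 0.23 with an adjusted p of 0.0446, beside 17.2% of all genes tested in that fit.

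Markers of several tissues were called alongside gpd-3. Over all genes tested, 7.72% were called, 3.44% higher and 4.28% lower, and 24.1% had an unadjusted p under 0.05. Among genes with a mean of at least 100 CPM, 13.4% were called. Of 10 body wall muscle markers, 0 were called higher and 4 lower, and their summed levels were 21542 to 25707 CPM in pbrm-1(TS-KO) against 24097 to 25657 CPM in pbrm-1(control). Of 7 intestine markers, 3 were called higher (asp-1, ifb-2 and vha-6) and 0 lower, and the sum of the 7 ran from 8299 to 8975 CPM against 6735 to 7487 CPM, without overlap. That sum was mostly asp-1, with a mean of 5153 CPM over the 10 libraries. ges-1 and act-5 had log2 fold changes of the other sign, -0.24 and -0.40, and were not called (adjusted p = 0.147 and 0.199). Of 5 pharyngeal muscle markers 1 was called lower, with sums of 5750 to 6287 CPM against 6020 to 6897 CPM. Of 8 neuron markers edgeR called 0, with 1 at an unadjusted p under 0.05 and sums of 3842 to 4062 and 3297 to 3922 CPM. Of 6 hypodermis markers it called 0, with 2 at an unadjusted p under 0.05 and sums of 132 to 147 and 132 to 227 CPM. Among these 6, dpy-7 was at 2.32 ± 0.617 CPM in pbrm-1(TS-KO) and 16.8 ± 28.4 CPM in pbrm-1(control), where its SD exceeded its mean. Of 5 germline markers 1, glh-1, was called higher, with sums of 98.6 to 116 CPM against 83.1 to 103 CPM in pbrm-1(control). Those sums were mostly glh-1 and pgl-1, with means of 58.5 and 33.4 CPM over the 10 libraries. nos-2, pie-1 and mes-1 had log2 fold changes of the other sign, -0.53, -0.11 and -0.29, and were not called. No marker was at 0 in any library. The part of these tissues in the level of gpd-3 was not tested.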

How the data were processed

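Counts per gene from 10 libraries of whole L1 larvae were analysed. The authors trimmed the reads, aligned them with STAR 2.5.2b, counted uniquely aligned reads in exons with featureCounts (Subread 1.5.2) and deposited raw counts. The methods name the assembly WBcel325, read here as WBcel235, and whether strand was used is not given in the sources used here. Coordinates and exon lengths came from the Ensembl annotation of WBcel235. No sequence of these genes was used here.

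In R 4.3.3, genes passing filterByExpr were tested with edgeR 4.0.16 (quasi-likelihood F test, TMM, no covariate, Benjamini-Hochberg adjustment, threshold 0.05). Standard errors and 95% intervals follow from each gene's log2 fold change and F value, and are approximate and unadjusted. Log2 CPM used a prior count of 2. Shares were compared by exact permutation tests. edgeR with and without the replicate block, DESeq2 without it and limma-voom were tested on simulated data, which held no day effect. Alternatives were DESeq2 1.42.0, limma 3.58.1 (voom with sample quality weights), RLE and upper quartile factors, other filters, the replicate block, added paralog counts, and fits without each library or pair. The fits of pck-2, hif-1, fbp-1, pbrm-1 and mai-1 under these alternatives were chosen after seeing the data.

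The strains were collected side by side on each of the culture days, and same-numbered libraries were therefore taken as pairs. Their deviations from the strain means correlated at 0.505, 0.283, 0.124, -0.0514 and 0.351 for replicates 1, 4, 5, 6 and 7 (median 0.283), against a median of -0.0972 between different numbers. All 20 library pairs within strains differed by more than counting noise.

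The 10 genes and all lists were chosen with earlier results of these data known. Genes set to be named were the 10, the other 9 of the pathway, bordering and hypoxia genes past the threshold with hif-1 and fbp-1, and pbrm-1. The 5 genes with a mean of at least 10 CPM most correlated with the 10 were also set to be named. Named outside this rule were mai-1, pfkb-1.1, pfkb-1.2, the overlapping genes and single tissue markers, and these markers were picked by their values.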

Additional observations from a re-analysis of the deposited data

Results flagged for a closer look

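In 46 sets of 5 libraries, 1 for each of the 19 glycolysis genes and 4 shares in each strain, 5 had a highest or lowest library far from the other 4, by a gap of more than 0.71 of the whole range. Chance gives about 1 in 20. The highest pbrm-1(TS-KO) library stood apart for pfk-1.2 (replicate 4, at 15 CPM) and for ipgm-1 (replicate 7, at 281 CPM). The lowest pbrm-1(control) library, replicate 1, stood apart for the gpd-3 share at 67.3% and for the pyk-1 share at 74.0%. The lowest pbrm-1(TS-KO) library, replicate 4, stood apart for the aldo-1 share at 9.65%.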

How the results depend on the processing

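gpd-3 was called in edgeR's main test, under the 8 other settings that tested it alone and in 14 of 15 fits that left out a library or a pair, with log2 fold changes from 0.29 to 0.38 in those fits. The number of the 10 genes called was 2 with DESeq2 (gpd-3 and aldo-2), 2 with limma-voom (gpd-3 and gpd-2), 2 with the replicate block in edgeR and 2 in DESeq2 (gpd-3 and aldo-2 in both), and 0 to 1 in the leave-out fits. aldo-2 had an adjusted p of 0.0382 with DESeq2, 0.00220 with the replicate block in DESeq2 and 0.0696 with limma-voom, and was not called in any leave-out fit. gpd-2 had an adjusted p of 0.0254 with limma-voom. In edgeR the replicate block changed no call of the 19 genes other than that of aldo-2, and in DESeq2 it ended the call of pyk-2 (adjusted p = 0.0403 without and 0.177 with the block). pck-2 was not called without a filter on low counts (adjusted p = 0.0547).

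The number of all genes called was 1299 in the main fit, 1958 with DESeq2, 2899 with limma-voom, 1826 with the replicate block in edgeR, and 408 to 1204 in the leave-out fits. It was lower by over 1.5 times without pbrm-1(TS-KO) replicate 5 (811) or 6 (828), pbrm-1(control) replicate 6 (839), or the pairs of replicate 1 (781), 4 (746), 5 (529) or 6 (408).

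Log2 fold changes near 0 changed sign for enol-1 with limma-voom (-0.0421) and with the replicate block in edgeR (-0.00012), for ipgm-1 with limma-voom (-0.0138), and for hxk-2 with upper quartile factors (0.0071) and with no filter (0.00046). Leave-out fits ran from -0.0561 to 0.0398 for enol-1, -0.0506 to 0.0236 for pyk-1, -0.0529 to 0.158 for ldh-1, -0.0671 to 0.0420 for hxk-2 and -0.0332 to 0.0321 for ipgm-1. None of these was called.

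Without single libraries or pairs, the difference in the gpd-3 share ran from 1.56 to 2.79 percentage points, that in the aldo-1 share from -2.66 to -1.66, that in the pyk-1 share from -9.46 to -4.81, and that in the share of gpd-2 and gpd-3 from 0.284 to 0.458. Without the pair of replicate 1, 4, 5 or 6, the gpd-3 and aldo-1 shares had an adjusted p of 0.0571, at the smallest exact permutation p that 4 against 4 libraries allow. The sign-flip test with the replicate block kept the differences of 2.39 and -2.30 points with an adjusted p of 0.0833. The median log2 fold change of the 10 genes ran from -0.01 to 0.10 over all these fits.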

Other observations

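The profile of the 10 genes over the libraries, taken as the mean of their standardized log2 CPM, was highest in pbrm-1(TS-KO) replicate 7 at 1.2 SD units and lowest in pbrm-1(control) replicate 4 at -0.48 and pbrm-1(TS-KO) replicate 1 at -0.46. The tested genes outside the 10 that correlated most with it over the 10 libraries were ipgm-1 (r = 0.88), ndua-8 (0.84), mce-1 (0.83), sqrd-1 (0.83) and R10E11.5 (0.81). ipgm-1 acts between pgk-1 and enol-1 in the pathway and had a log2 fold change of 0.0065 between the strains. None of these 5 genes was called in edgeR's test, with adjusted p from 0.400 to 0.974. The correlations are descriptions over libraries that share strain, day and depth.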
